A study of Mus musculus with 12 samples.

Results

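The bromodomain inhibitor PFI-3 was compared with its vehicle DMSO in proliferating C2C12 cells, an immortalized mouse myoblast line. The comparison uses 4 of the 12 libraries, those labelled GM, and leaves the 8 libraries of differentiating cells for 1 contrast at the end. These 4 were chosen by their titles: 2 libraries from cells given DMSO and 2 from cells given 50 uM PFI-3, each pair lettered A and B. Both treatments lasted 12 h and were given in growth medium with fetal bovine serum, on cells kept below confluence. Both groups are the same unmodified line, so they differ in the compound alone as far as the labels say, and a single line limits what they model. The labels call the libraries biological duplicates and do not say what the letters stand for. The other groups had the same pretreatment, were switched to horse serum with insulin to induce differentiation and were harvested 24 h (DM 24h) or 48 h (DM 48h) later, with DMSO or PFI-3 renewed.

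PFI-3 occupies the bromodomains encoded by Smarca2 and Smarca4, the ATPase genes, and by Pbrm1, which encodes polybromo, all parts of the SWI/SNF remodelling complexes that slide and evict nucleosomes. A bromodomain reads acetylated lysine, and blocking it does not by itself remove the ATPase activity. In myoblasts these complexes are known for working with MyoD at muscle gene promoters when the cells leave the cycle. Several programmes described below also have well known transcription factors: NRF2 and the aryl hydrocarbon receptor switch on detoxification enzymes, SRF and YAP drive actin and contractile genes, SREBP2 drives cholesterol synthesis, and ATF4 answers amino acid shortage and other stresses.

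The 4 libraries held between 13262584 and 13658352 expected counts and listed 13499 to 13848 genes each. Libraries A and B stood apart within each treatment. For genes of 50 counts or more, log2 ratios between the 2 libraries had an SD of 0.332 with DMSO and 0.311 with PFI-3. The letters acted alike in both treatments: across 9015 genes of at least 10 CPM (counts scaled to a common library size), the deviations of same-letter libraries from their group means correlated at r = 0.526, against 0.0385 and 0.0615 in the DM stages. This is a description across genes, which are not independent. Each PFI-3 library was therefore set against the DMSO library of its own letter. All 10 myoblast markers were detected in all 4 libraries. Of the 8 endothelial markers none passed 3 counts in a library, and the 10 myotube markers together held 5.29 to 8.79 FPKM. At 0 were 5 of 8 leukocyte markers (Ptprc among them) and 4 of 8 adipocyte markers (Adipoq among them). The leukocyte list summed to 2.33 to 8.21 FPKM and the adipocyte list to 11.2 to 16.5 FPKM. Epithelial markers summed to 3.18 to 8.97 FPKM (2 of 8 at 0). Nerve markers (3 of 8 at 0, Sox10 among them) summed to 37.4 and 40.7 FPKM with DMSO and 28.7 and 21.3 with PFI-3, and of these Tubb3 was called lower. The 8 osteoblast markers, led by Spp1, followed the letters: 927 and 1507 FPKM with DMSO and 751 and 2156 with PFI-3. Bulk RNA cannot tell fewer cells of a type from less RNA per cell.

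With the letter as a block, edgeR's quasi-likelihood test called 741 of 11656 genes at a Benjamini-Hochberg adjusted p under 0.05, which is 6.36%. Of these, 393 were higher with PFI-3 (3.37% of all genes tested) and 348 lower (2.99%). Changes of at least 2-fold numbered 111 upward and 74 downward. Every one of the 741 had the same sign in both pairs, which a test on these same pairs favours. The 2 PFI-3 values lay above both DMSO values for 374 of the 393 and below both for 306 of the 348, where 24.1% and 22.3% of all tested genes did so. The test picked genes on these values, so such counts are no separate support, here or in the lists below. Asking instead for at least a 1.5-fold change in each pair, with no test, 265 of 11336 genes were higher (2.34%), 154 lower (1.36%) and 19 opposite in the pairs. The pairing decides how many genes pass: without the block 32 genes were called by the same test, 16 in each direction. With limma on log2(FPKM + 1), 65.8% of the calls were upward, against 53% here.

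**Figure D1:**
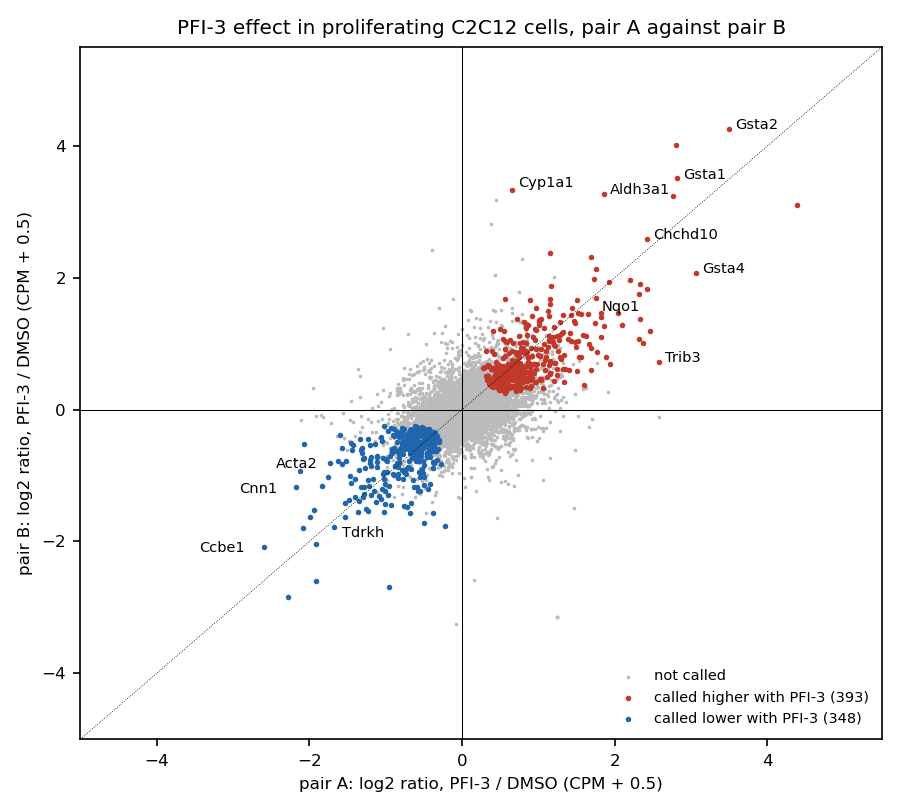
Each point is a gene tested, with the log2 ratio of PFI-3 to DMSO (CPM + 0.5) in pair A on the horizontal axis and in pair B on the vertical axis, and the dotted diagonal marks equal ratios. The 393 genes called higher lie in the upper right quadrant and the 348 called lower in the lower left, while Cyp1a1 lies above the diagonal and Trib3 below it.

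Among the compound's own targets, Smarca2 rose and the others did not pass the test. Smarca2 stood at 19.4 and 28.2 CPM with DMSO and 31.4 and 45.4 CPM with PFI-3 (A, then B, as in every pair of values below). Its PFI-3 values lay above both DMSO values, with the same rise in each pair by CPM (0.68 in pair A and 0.68 in pair B). The log2 fold change was 0.69 ± 0.11 (adjusted p = 0.00901). By FPKM the rise was smaller in pair B, with 4.81 and 7.88 against 7.94 and 10.1 FPKM. With limma on log2 FPKM, at a pseudocount of 1 or 0.1, Smarca2 was not called. Per length it is the scarcest of the 3: 4.81 to 10.1 FPKM in the 4 libraries, against 62.8 to 71.0 FPKM for Smarca4 and 17.8 to 24.1 FPKM for Pbrm1. Smarca4 gave 471 and 434 against 383 and 431 CPM, with the groups overlapping (-0.15 ± 0.11 on the log2 scale, adjusted p = 0.427). Pbrm1 gave 151 and 172 against 188 and 160.3 CPM (0.11 ± 0.11, adjusted p = 0.61). Smarca2 was the 1 subunit called of 26 tested (3.85%, against 6.36% of all genes). The median over the 26 was -0.04 on the log2 scale, against 0.00 over all genes tested. In the edgeR fit of all 12 libraries with the block within stage, 5 of the 26 were called. Of these, 1 was higher and 4 lower, and that fit called 2774 of 12545 genes. Neither Smarca4 nor Pbrm1 was among them. Of 32 other bromodomain proteins 2 were called (6.25%, near the 6.36% of all genes). Brpf3, a scaffold of histone acetyltransferase complexes, was called higher (log2 fold change 0.47 ± 0.09, adjusted p = 0.0229). Trim66, a tripartite motif protein, was called lower, at 6.35 and 4.49 against 1.31 and 0.718 CPM (log2 fold change -2.42 ± 0.31, adjusted p = 0.0036). Neither Smarca2, Brpf3 nor Trim66 passed in the 4-library fit without the block, whereas all of them passed in the fit of all 12 libraries without it.

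Antioxidant and conjugating enzymes rose. Of 50 tested members of the NRF2 list, 21 were called higher and none lower, against 3.37% of all genes called higher, and the median was 0.35 on the log2 scale. For all 21, both PFI-3 values lay above both DMSO values, as for 374 of the 393 genes called higher. Nqo1, the quinone reductase often used as the readout of NRF2, stood at 71.0 and 97.8 CPM with DMSO and 240.1 and 317 CPM with PFI-3. That is a 3.31-fold rise, close to equal in the pairs (log2 fold change 1.73 ± 0.09, adjusted p = 6.84e-05; 1.75 in pair A and 1.69 in pair B). Blvrb, a biliverdin and flavin reductase, gave 11 and 11.8 against 38.3 and 53.2 CPM (log2 fold change 1.99 ± 0.13, adjusted p = 0.000153). The remaining called members were Aldh3a1, Ugt1a6a, Ptgr1, Srxn1, Pgd, Pir, Cbr3, Slc48a1, Cat, Fth1, Esd, Abcc4, Txnrd1, both subunits of glutamate-cysteine ligase (Gclc and Gclm), and 4 glutathione S-transferases. Not every member moved. Slc7a11, the cystine carrier, gave 1039.7 and 966 against 917 and 812 CPM (adjusted p = 0.26). Ftl1, the ferritin light chain, gave 2750.0 and 3589 against 4113 and 4629.5 CPM (0.47 ± 0.13, adjusted p = 0.0624). Hmox1, heme oxygenase 1, went opposite ways in the pairs: 135 and 185 CPM with DMSO and 224 and 92.4 CPM with PFI-3, or 0.73 in pair A and -1.0 in pair B. Without the block 6 members were called: Nqo1, Srxn1, Blvrb, Gsta1, Gsta2 and Gsta4. Leaving out 1 library, in fits of 3 libraries that cannot hold the block, left 6 to 16 calls, all higher.

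Glutathione S-transferases, which attach glutathione to electrophiles, rose in the alpha class most of all. Gsta4 (chr9:78191966-78209349, GRCm38), Gsta1 (chr9:78230669-78242683), Gm3776 (chr9:78257129-78269166) and Gsta2 (chr9:78331018-78347192) are neighbours on chromosome 9, and all were called. Gsta4 stood at 66.0 and 120.0 CPM with DMSO and 554 and 506 CPM with PFI-3, a 5.91-fold rise (log2 fold change 2.56 ± 0.20, adjusted p = 0.000365). Gsta1 gave 10.5 and 10.0 against 76.3 and 120.0 CPM (log2 fold change 3.24 ± 0.16, adjusted p = 5.97e-05), Gm3776 gave 4.57 and 6.04 against 33.9 and 61.0 CPM, and Gsta2 gave 0.542 and 0.883 against 11.3 and 26.1 CPM (log2 fold change 4.68 ± 0.25, adjusted p = 6.74e-05). Gsta1, Gsta2 and Gm3776 are near-identical copies whose counts were fractional in 77.8% to 90.0% of the libraries that list them, so how reads were divided among them is uncertain. Their sum does not depend on how reads were split among the 3: 15.6 and 16.9 CPM with DMSO rose to 121.5 and 207 CPM with PFI-3, 7.79-fold in pair A and 12.2-fold in pair B. In all, 6 of 20 tested transferases were called higher (30%, against 3.37% of all genes) and none lower, with a median of 0.45. The others called were Mgst1 (0.774 and 1.32 against 2.92 and 4.45 CPM) and Gstm1. Gstp1, the one with the highest level, gave 326 and 381 against 401 and 382 CPM (adjusted p = 0.432, counts shared between copies).

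**Figure D2:**
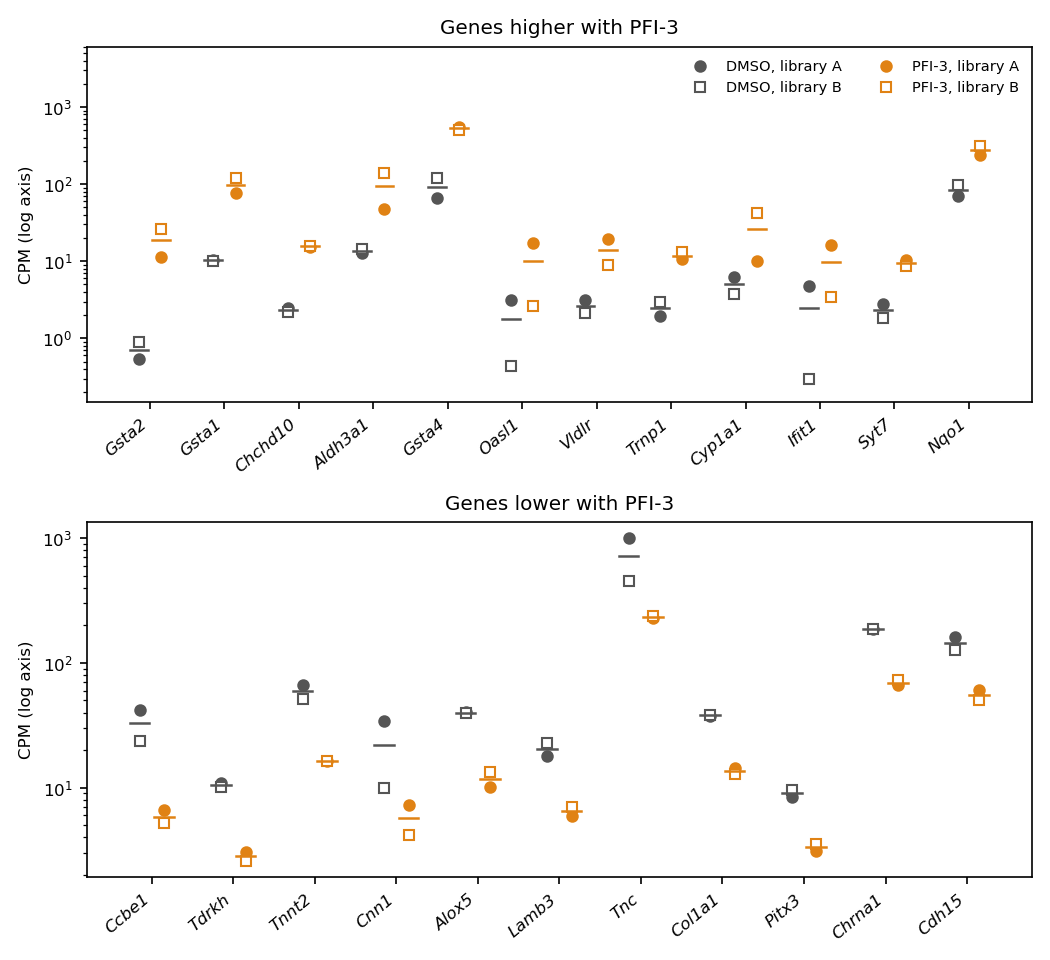
CPM on a log axis in each of the 4 libraries for the genes named on the horizontal axis, with filled circles for library A, open squares for library B and a bar at each group's mean. In most genes the PFI-3 values lie clear of the DMSO values, as for Gsta4 and Col1a1, whereas PFI-3 library B overlaps the DMSO range for Oasl1 and Ifit1.

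Targets of the aryl hydrocarbon receptor, the sensor of planar aromatic compounds, rose as well. Of 15 tested, 9 were called higher (60%, against 3.37% of all genes) and none lower (median 0.87). All 9 lay above DMSO in both libraries. Aldh3a1, an aldehyde dehydrogenase, stood at 12.8 and 14.3 CPM with DMSO and 47.6 and 141 CPM with PFI-3, a rise of 6.32-fold (log2 fold change 2.66 ± 0.26, adjusted p = 0.000993). Cyp1b1, a monooxygenase that the receptor induces, gave 293 and 242 against 427 and 554 CPM (log2 fold change 0.87 ± 0.15, adjusted p = 0.0128). The classic target Cyp1a1 gave 6.27 and 3.75 against 10.1 and 42.1 CPM (log2 fold change 2.16 ± 0.49, adjusted p = 0.0363), and most of its rise came from pair B (0.65 in pair A and 3.32 in pair B). Xdh, xanthine dehydrogenase, went from 5.34 and 12.8 to 31.7 and 29.8 CPM (log2 fold change 1.81 ± 0.26, adjusted p = 0.00609), with the larger ratio in pair A. Ugt1a6a, a glucuronosyltransferase that shares counts with its sister genes, gave 1.94 and 4.27 against 8.10 and 12.1 CPM. The receptor's repressor Ahrr, Tiparp and Exoc3 were the other calls. Aldh3a1, Nqo1 and Ugt1a6a, 3 of the 9, also stand in the NRF2 list. Without the block, Nqo1 alone was called, and leaving out 1 library left 2 to 6 rises.

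Interferon-stimulated genes rose in both pairs from levels that differed between the letters. Of 29 tested, 8 were called higher (27.6%, against 3.37% of all genes) and none lower. The median was 0.52, with 0.66 in pair A and 0.30 in pair B. Ifit1, which binds foreign RNA, stood at 4.72 and 0.294 CPM with DMSO and 16.3 and 3.45 CPM with PFI-3 (log2 fold change 2.12 ± 0.31, adjusted p = 0.00728). The groups overlap: PFI-3 library B lay below DMSO library A, although it was above its own partner. Oasl1 (3.10 and 0.442 against 17.4 and 2.66 CPM; log2 fold change 2.51 ± 0.25, adjusted p = 0.00113) and the RNA sensor Ifih1 (3.72 and 0.589 against 8.83 and 2.80 CPM) showed the same overlap. Oasl2 (2.86 and 1.25 against 11.7 and 3.73 CPM) and Gbp7, a guanylate-binding protein (0.387 and 0.442 against 3.28 and 1.80 CPM), did not. Isg15, Ddx58 and Tapbp were called too, so that 4 of the 8 had groups that did not overlap. B2m, the member with the highest level, gave 167 and 175 against 171 and 244 CPM (adjusted p = 0.22). In both treatments 4 list members were at least 2-fold higher in library A, against 12 of all genes tested. None of the list passed without the block, or without either PFI-3 library, and 1 did without either DMSO library. The 250 bases before the Ifit1 start, from RefSeq GRCm38.p6 (plus strand, chr19:34640639-34640888), are shown because this gene carries 2 matches to the core of the interferon-stimulated response element (GAAA, any 2 bases, GAAA), in capitals and here read from the other strand as TTTC, 2 bases, TTTC:
Ifit1: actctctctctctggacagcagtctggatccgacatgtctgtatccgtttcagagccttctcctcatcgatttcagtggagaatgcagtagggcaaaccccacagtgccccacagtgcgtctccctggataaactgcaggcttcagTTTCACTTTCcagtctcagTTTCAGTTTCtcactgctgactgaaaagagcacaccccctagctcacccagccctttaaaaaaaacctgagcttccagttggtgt
The matches begin 104 and 85 bases before the start. Searched on both strands of RefSeq promoters (250 bases before to 50 after the start), this motif was present in 5 of 8 called and 7 of 15 uncalled members with a promoter in the table, and in 3.49% of all 27025 promoters.

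Some ATF4 targets rose, with larger ratios in pair A than in pair B. Of 35 tested, 8 were called higher (22.9%, against 3.37% of all genes) and none lower. The median of 0.21 split into 0.51 in pair A and -0.07 in pair B. Vldlr, a lipoprotein receptor that ATF4 induces, rose in both: 3.17 and 2.13 CPM with DMSO and 19.3 and 8.90 CPM with PFI-3 (log2 fold change 2.36 ± 0.22, adjusted p = 0.000674). Trib3, a pseudokinase that restrains ATF4, gave 8.83 and 7.36 against 55.0 and 12.5 CPM (log2 fold change 1.82 ± 0.34, adjusted p = 0.019; 2.57 in pair A and 0.73 in pair B). Cth, which makes cysteine, gave 4.88 and 6.77 against 20.1 and 11.2 CPM (log2 fold change 1.38 ± 0.27, adjusted p = 0.0233), and the transcription factor Atf5 gave 112 and 107 against 248 and 158 CPM (log2 fold change 0.86 ± 0.13, adjusted p = 0.00944). Ddit4, Gdf15, Cebpb and Sesn2 were the other calls, and in all 8 the groups did not overlap. Chac1, which degrades glutathione, moved in opposite directions: 22.4 and 23.8 against 47.0 and 11.1 CPM, or 1.06 in pair A and -1.07 in pair B. With PFI-3 the list's median stood 0.76 lower in library B than in library A on the log2 scale, whereas with DMSO it stood 0.10 lower. Leaving out PFI-3 library A gave a list median of -0.19 and no call, leaving out DMSO library A left 1 call and either B library 4, and no member passed without the block.

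Genes of cholesterol synthesis fell with PFI-3 within each pair. Of 28 tested, 14 were called lower, against 2.99% of all genes, and 1 higher, with a median of -0.56 (-0.36 in pair A and -0.66 in pair B). Hmgcs1, which makes the HMG-CoA that feeds the pathway, stood at 68.4 and 183 CPM with DMSO and 48.4 and 82.5 CPM with PFI-3 (log2 fold change -0.84 ± 0.14, adjusted p = 0.012; -0.49 in pair A and -1.15 in pair B). The master regulator Srebf2 gave 246 and 362 against 169.8 and 221 CPM (log2 fold change -0.62 ± 0.10, adjusted p = 0.00956). Insig1, the sterol-sensitive anchor of SREBP, gave 22.2 and 65.7 against 14.7 and 27.5 CPM, the isomerase Idi1 52.9 and 119 against 31.6 and 63.5 CPM and lanosterol synthase, Lss, 22.5 and 51.8 against 16.3 and 22.1 CPM. The letters differed as much as the treatments did. The list's median was 0.82 higher in library B than in library A with DMSO and 0.58 higher with PFI-3, so that PFI-3 library B often reached DMSO library A, as for Hmgcs1 and Idi1. Groups did not overlap for 5 of the 14. How many were called depended on the pairing and on the libraries used. Without the block none passed in the fit of the growth medium libraries, whereas 6 of the 28 were called lower in the fit of all 12 libraries. Fits that left out 1 library cannot hold the block, and their medians shifted with the library left out. The median was -0.85 without DMSO library A and -0.06 without DMSO library B. It was -0.35 without PFI-3 library A and -0.81 without PFI-3 library B. Cyp51, Msmo1, Fdft1, Sc5d, Sqle and Dhcr7 were also called lower. The lipogenic genes Fasn (893 and 926 against 576 and 636 CPM; log2 fold change -0.59 ± 0.11, adjusted p = 0.0158) and Srebf1 also fell, whereas the LXR targets Mylip (log2 fold change 0.73 ± 0.17, adjusted p = 0.0399) and Pltp (log2 fold change 0.59 ± 0.10, adjusted p = 0.0141) and the cholesterol exporter Npc1 rose.

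The Hmgcs1 promoter is shown for the sterol regulatory element that marks this pathway, searched as TCACNCCAC on both strands and put in capitals (plus strand, chr13:119690101-119690350, RefSeq GRCm38.p6):
Hmgcs1: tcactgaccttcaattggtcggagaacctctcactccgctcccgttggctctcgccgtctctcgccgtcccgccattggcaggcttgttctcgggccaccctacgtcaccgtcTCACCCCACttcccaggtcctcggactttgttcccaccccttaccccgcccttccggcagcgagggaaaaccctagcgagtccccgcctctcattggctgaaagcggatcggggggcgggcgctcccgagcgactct
The match begins 137 bases before the start. It was the 1 of 9 called members with a promoter in the table that held these letters, against 0 of 11 uncalled members and 1.22% of all promoters.

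Actin and contractile genes under SRF and YAP fell, more so in pair A. Of 52 tested, 14 were called lower (26.9%, against 2.99% of all genes) and none higher. The median was -0.29 (-0.44 in pair A and -0.12 in pair B). Acta2, smooth muscle actin, stood at 3689 and 1378 CPM with DMSO and 1195 and 805 CPM with PFI-3 (log2 fold change -1.20 ± 0.19, adjusted p = 0.00901). Cnn1, calponin, fell 3.59-fold (34.3 and 10.0 against 7.22 and 4.16 CPM; log2 fold change -1.84 ± 0.23, adjusted p = 0.00316). Tagln, transgelin, gave 743 and 179 against 274 and 117 CPM (log2 fold change -1.04 ± 0.17, adjusted p = 0.0112), so that the groups overlapped and the DMSO libraries differed by more than either pair did. Leaving out DMSO library A turned the Tagln estimate to 0.13. Myl9, the myosin light chain of non-muscle and smooth muscle cells, gave 175 and 75.3 against 41.4 and 52.1 CPM (log2 fold change -1.31 ± 0.28, adjusted p = 0.0303; -2.07 in pair A and -0.53 in pair B), and Actg2 gave 213 and 75.2 against 63.7 and 42.8 CPM. Thbs1, a secreted YAP target, gave 1169 and 970.5 against 424 and 483 CPM (log2 fold change -1.24 ± 0.13, adjusted p = 0.00166) and was the 1 member called without the block. Fhl1, Tpm4, Tgfb1i1, Itga5, Cnn3, Cnn2, Csrp2 and Fhl2 were also called, and in 12 of the 14 the groups did not overlap. Actb, beta actin, did not pass (9899.6 and 7005 against 6935 and 6738 CPM, counts shared between copies, adjusted p = 0.298). DMSO library A stood apart: over the 8 smooth muscle markers fixed as a list, of which Myh11 was at 0 and 4 were called lower, the summed level was 2097 FPKM there, 772 in DMSO library B, 777 in PFI-3 library A and 488 in PFI-3 library B. Whether that library's higher level has a part in the falls was not tested. Without it, 1 member was called lower, and without either PFI-3 library none was.

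A CArG box, the site that SRF binds, stood in 4 of 9 called members with a promoter in the table (Fhl2, Myl9, Cnn2 and Fhl1), in 3 of 29 uncalled members and in 1.57% of all promoters. For Myl9 the start used in the search lies within the gene as RefSeq lists it (from chr2:156775408), and so do the last bases printed. The Myl9 promoter is shown with its box in capitals, beginning 161 bases before the start used (plus strand, chr2:156775214-156775463, RefSeq GRCm38.p6):
Myl9: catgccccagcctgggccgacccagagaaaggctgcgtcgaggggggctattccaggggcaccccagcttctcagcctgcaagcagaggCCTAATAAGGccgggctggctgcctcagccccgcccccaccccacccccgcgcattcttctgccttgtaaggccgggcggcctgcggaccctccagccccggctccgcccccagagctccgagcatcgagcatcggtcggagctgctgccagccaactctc
None of the printed matches overlapped one of the other motifs searched. The antioxidant response element TGACNNNGC stood in 4 of 17 called and 7 of 23 uncalled members of the NRF2 list, and in 12.5% of all promoters. The xenobiotic response element TNGCGTG stood in 1 of 7 called receptor targets (Ahrr), 0 of 3 uncalled ones and 5.12% of all promoters. These are matches of letters and not measured sites.

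**Figure D3:**
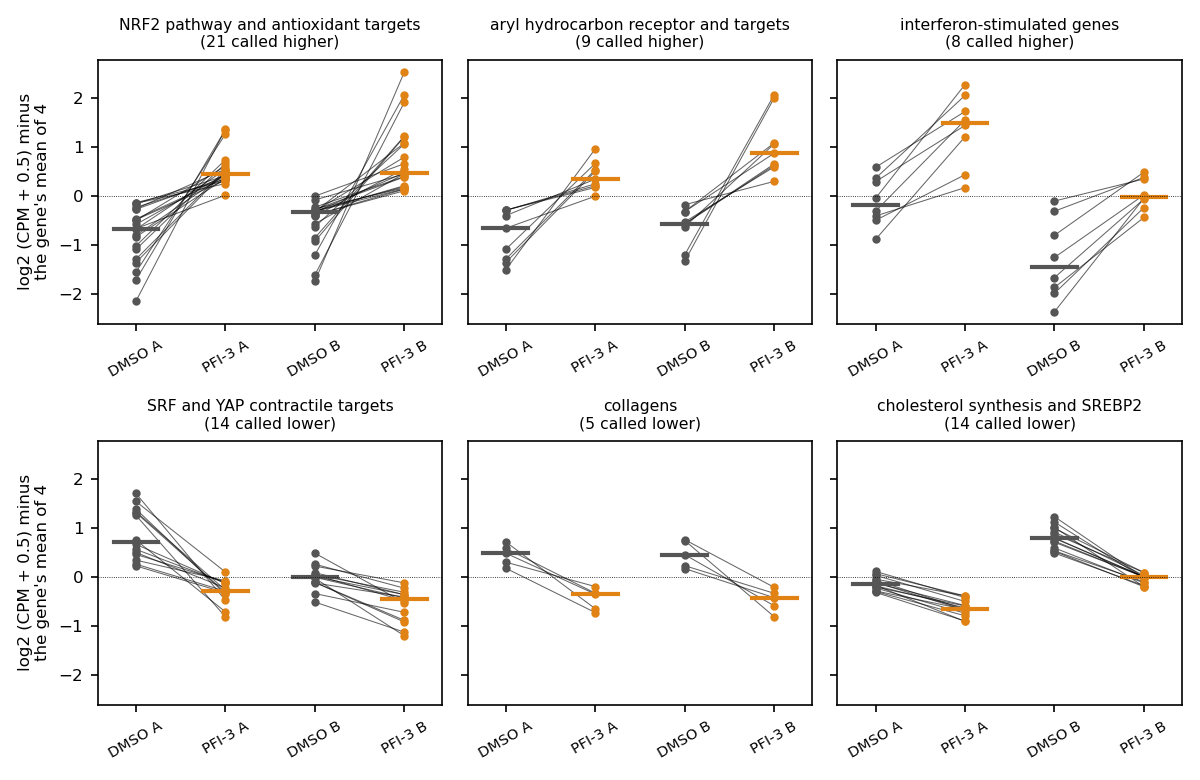
For the called members of 6 lists, each dot is a gene's log2 (CPM + 0.5) in a library minus its mean over the 4 libraries, thin lines join DMSO to PFI-3 of the same letter, and thick bars mark medians. Since only called members are drawn, every line rises in the upper panels and falls in the lower ones. The cholesterol panel stands higher in pair B and the contractile panel starts highest in DMSO A.

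Several collagens and other matrix genes fell. Of 21 tested collagens, 5 were called lower (23.8%, against 2.99% of all genes) and none higher. The groups did not overlap in any of the 5. Col1a1, a chain of type I collagen, fell 2.81-fold, from 37.7 and 38.4 to 14.4 and 12.8 CPM (log2 fold change -1.49 ± 0.12, adjusted p = 0.000414), and was the 1 collagen also called without the block. Its partner Col1a2 (445 and 667 against 238 and 339.6 CPM; log2 fold change -0.94 ± 0.10, adjusted p = 0.00167), Col6a3 (-0.94 ± 0.10), Col5a2 (-0.75 ± 0.11) and Col5a1 (-0.53 ± 0.10) followed. Col3a1, the collagen with the highest level, gave 580.0 and 740.2 against 423 and 641 CPM (adjusted p = 0.113). Among 46 other matrix genes, 14 were called lower (30.4%) and 4 higher (8.7%), against 2.99% and 3.37% of all genes. Bgn, biglycan, stood at 1007 and 1049 CPM with DMSO and 422 and 368 CPM with PFI-3 (log2 fold change -1.38 ± 0.11, adjusted p = 0.000414). Tnc, tenascin C, gave 996 and 456 against 229 and 239 CPM (log2 fold change -1.53 ± 0.23, adjusted p = 0.00814), with a much larger ratio in pair A, where DMSO was highest. Cthrc1, Ccbe1, Thbs1, Efemp2, Nid2, Ogn, Thbs3, the lysyl oxidases Loxl2, Loxl3 and Loxl4, and the collagen-processing genes Pcolce and P4ha1 were lower as well. Those that rose were Fbln5, Vcan, Agrn and Tnxb (0.155 and 0.221 against 0.948 and 1.80 CPM), a low-abundance gene. Fn1, fibronectin, the member with the highest level, did not pass (3896 and 2682 against 2639 and 2151 CPM, adjusted p = 0.0743). Without DMSO library B the collagen median was 0.13, with 6 called lower, and without either PFI-3 library 1 collagen was called. The other matrix genes called lower then numbered 1 or 2 without a PFI-3 library and 6 or 8 without a DMSO library. The 10 fibroblast markers, of which Lum, Dpp4 and Tcf21 were at 0 and Pdgfra was called higher, summed to 123 and 216 FPKM with DMSO and 109 and 196 with PFI-3, and their part in these falls was not tested.

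Adhesion receptors split. Itgb7, an integrin beta chain best known from lymphocytes, rose 3.15-fold (24.8 and 33.6 CPM with DMSO and 88.9 and 93.6 CPM with PFI-3; log2 fold change 1.65 ± 0.11, adjusted p = 0.000172). Itga5, Itgb3 and Itga7 fell, with log2 fold changes of -0.54 ± 0.13, -0.56 ± 0.10 and -0.48 ± 0.09. Lamb3, a laminin chain, fell from 18.0 and 22.8 to 5.91 and 7.04 CPM (log2 fold change -1.65 ± 0.15, adjusted p = 0.000716). Matrix proteases moved both ways: Mmp28 (0.98 ± 0.21), Mmp11 (0.64 ± 0.13) and Adam15 were higher, whereas Adamts4 (-0.81 ± 0.15, counts partly shared), Adam12 (-0.80 ± 0.10), Adamts1 (-0.74 ± 0.12) and Adamts7 were lower. Adam12, a metalloprotease tied to fusion, gave 131 and 75.9 against 69.4 and 47.6 CPM. None of these proteases passed without the block.

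Surface and cytoskeletal genes of the myoblast fell in part, while its determination factors did not pass the test on the 4 libraries. Myod1, the myogenic determination factor, gave 151 and 180.0 against 113 and 159 CPM (log2 fold change -0.30 ± 0.10, adjusted p = 0.11). It was lower in both pairs (-0.42 in pair A and -0.18 in pair B), and 1 of 13 alternative analyses called it. Myf5 (58.0 and 61.0 against 43.0 and 66.6 CPM; adjusted p = 0.538) and Pax7, the satellite cell factor (39.4 and 46.4 against 33.4 and 44.0 CPM; adjusted p = 0.387), had smaller differences. Of 30 tested genes of the identity list, 7 were called lower (23.3%) and 2 higher (6.67%, Snai2 and Eya1), against 2.99% and 3.37% of all genes. Groups did not overlap in any of the 9. Cdh15, M-cadherin, stood at 161 and 128 CPM with DMSO and 60.8 and 50.7 CPM with PFI-3, a 2.58-fold fall (log2 fold change -1.37 ± 0.09, adjusted p = 0.000153; -1.40 in pair A and -1.32 in pair B), and was the 1 of them called without the block. Fgfr4, Cxcr4, Vcam1, Cav1, Itga7 and Des were the others, with Cxcr4 at 24.0 and 31.4 against 10.2 and 18.9 CPM (log2 fold change -0.96 ± 0.15, adjusted p = 0.00926) and Vcam1 at 103 and 122 against 69.4 and 76.3 CPM (log2 fold change -0.62 ± 0.09, adjusted p = 0.00618). Chrna1, the acetylcholine receptor alpha chain, fell 2.70-fold with both pairs close together (188 and 188 against 66.9 and 72.4 CPM; log2 fold change -1.43 ± 0.09, adjusted p = 0.000153; -1.48 in pair A and -1.37 in pair B). Its counts were fractional in every library, so some reads were shared with another gene. The 10 myoblast markers fixed as a list, of which Chrna1, Cdh15, Itga7 and Des were called lower, summed to 497 and 561 FPKM with DMSO and 367 and 443 FPKM with PFI-3. Of the identity list, 2 were called lower without DMSO library A, 1 without DMSO library B or PFI-3 library A and none without PFI-3 library B.

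Differentiation genes were near the detection limit in growth medium. Myog had 2 and 5 counts with DMSO and 6 and 12 with PFI-3, and Ckm had at most 5 counts in a library, so neither was tested. Of 17 sarcomere genes that could be tested, 3 were called lower (17.6%, against 2.99% of all genes). Tnnt2, cardiac troponin T, which myoblasts transcribe early, fell 3.59-fold (66.7 and 51.6 CPM with DMSO and 16.4 and 16.3 CPM with PFI-3; log2 fold change -1.84 ± 0.12, adjusted p = 0.000153). Tnnc1 (4.34 and 4.56 against 1.68 and 1.65 CPM; log2 fold change -1.41 ± 0.28, adjusted p = 0.0236) and Actn3 (5.42 and 9.35 against 2.77 and 5.10 CPM; log2 fold change -0.91 ± 0.21, adjusted p = 0.0397) were scarcer. In the fusion list, Cdh15, Cxcr4 and Adam12 were the 3 called of 34, all lower. That is 8.82%, against 6.36% of all genes called and 2.99% called lower.

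Signalling lists held calls in both directions. In the insulin-like growth factor system, Irs2, an adaptor of the insulin receptor, rose (28.7 and 28.1 CPM with DMSO and 56.2 and 58.9 CPM with PFI-3; log2 fold change 1.02 ± 0.10, adjusted p = 0.000993), as did Igf2r (0.43 ± 0.10) and Htra1 (0.52 ± 0.09). The binding protein Igfbp2 fell (199 and 309 against 132 and 137 CPM; log2 fold change -0.89 ± 0.13, adjusted p = 0.00802). Igfbp5 was called lower (93.5 and 436 against 58.9 and 325 CPM; log2 fold change -0.54 ± 0.10, adjusted p = 0.0207) across a difference between letters larger than its change, and its estimate turned to 0.29 without PFI-3 library A and 1.03 without DMSO library B. Igf2 had under 2 CPM throughout (log2 fold change -0.58 ± 0.41, adjusted p = 0.427). Of TGF-beta family genes, Inhbb (-1.03 ± 0.20), its antagonist follistatin, Fst (-1.02 ± 0.21), and Ltbp2 (-0.62 ± 0.09) fell, and Gdf15 rose (0.58 ± 0.14). In the Notch list Dtx4 (0.75 ± 0.15) and Maml3 (0.54 ± 0.12) rose and Notch1 (-0.47 ± 0.10) and Jag2 (-0.46 ± 0.10) fell. Wnt4 rose (8.98 and 7.95 against 18.6 and 20.7 CPM; log2 fold change 1.21 ± 0.16, adjusted p = 0.00398, counts shared with another gene), and Lef1 fell (-0.69 ± 0.17). Called members made up 31.2% of 16 tested genes of the insulin-like growth factor list, 18.2% of 22 for Notch, 14.3% of 28 for TGF-beta and 6.67% of 30 for Wnt, against 6.36% of all genes.

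Growth factor and inflammatory genes also moved in both directions. Fgf7, a growth factor for epithelial cells, rose (39.7 and 60.7 against 75 and 117 CPM; log2 fold change 0.93 ± 0.09, adjusted p = 0.000981), and Btc, betacellulin, rose from a low level (3.33 and 1.69 against 8.02 and 10.9 CPM; log2 fold change 1.92 ± 0.32, adjusted p = 0.011). Pdgfra and Kitl were also called higher, whereas Pdgfrb (log2 fold change -0.86 ± 0.09, adjusted p = 0.00134), Pdgfb (-1.85 ± 0.41), Fgfr4 (-1.30 ± 0.25) and Hbegf were lower. Of 40 immediate early genes, 4 rose and 4 fell (10% each, against 3.37% and 2.99% of all genes). Nr4a2, an orphan nuclear receptor, had the largest rise of them (71.9 and 66.0 CPM with DMSO and 148 and 171 CPM with PFI-3; log2 fold change 1.21 ± 0.11, adjusted p = 0.000553), with Klf4 (0.72 ± 0.10), Fosl2 and Jund. Arc (-1.21 ± 0.25), Fosb (-1.14 ± 0.28), Egr3 (-0.78 ± 0.18) and Dusp5 fell. Il6 (0.697 and 0.368 against 2.12 and 1.94 CPM), Il33 (6.5 and 21.6 against 11.7 and 30.3 CPM) and Ccl2 (84.7 and 93.6 against 117 and 123 CPM) were called higher and Cxcl12 lower (-0.59 ± 0.11). Il33 overlapped between groups, and its estimate turned to -0.04 without DMSO library A and -0.26 without PFI-3 library B. Among 20 Id and BMP genes none was called in this fit or by DESeq2, Id1 (0.22 ± 0.10) and Id3 (-0.22 ± 0.13) included, and 5 had an unadjusted edgeR p under 0.05. With a filter of at least 10 counts on average, edgeR called 2 of the 20, 1 in each direction.

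Few proliferation genes passed the test on the 4 libraries. None of 66 G2 and mitosis genes was called in this 4-library fit of edgeR or by DESeq2, and 12 had an unadjusted edgeR p under 0.05, 9 of them lower. Of 60 genes of S phase and replication E2f2 alone was called (log2 fold change -0.52 ± 0.11, adjusted p = 0.0274), and none was by DESeq2. In the edgeR fit of all 12 libraries with the block within stage, 13 of the 66 were called, 11 of them lower. Of the 60, 9 were called there, 7 of them lower. That fit called 2774 of all 12545 genes, 1569 of them lower. The medians in the 4-library fit were -0.09 and -0.02. In the former list the pairs differed in sign, at -0.21 in pair A and 0.05 in pair B. Ccnd1, cyclin D1, gave 767 and 629.7 against 620.1 and 631 CPM (log2 fold change -0.15 ± 0.12, adjusted p = 0.454), and the inhibitor Cdkn1a gave 187 and 169 against 124 and 168 CPM (log2 fold change -0.30 ± 0.13, adjusted p = 0.206). Ccnd2, cyclin D2, rose (41.2 and 30.5 against 70.7 and 59.0 CPM; log2 fold change 0.86 ± 0.10, adjusted p = 0.00222). The phosphatase Cdkn3 was called lower (-1.09 ± 0.23). Of 34 p53 targets, Psrc1 (log2 fold change -1.16 ± 0.14, adjusted p = 0.0027), Gadd45g (-0.99 ± 0.15) and Zmat3 (-0.70 ± 0.10, counts partly shared) fell while Sesn2 (0.48 ± 0.10) and Pltp rose. In the endoplasmic reticulum list of 25, Xbp1 (-0.79 ± 0.10), Manf (-0.47 ± 0.10) and Pdia6 (-0.43 ± 0.10) fell. None of 75 cytosolic ribosomal protein genes was called in the 4-library fit or by DESeq2, with a median of -0.13 and 9 at an unadjusted edgeR p under 0.05, 8 of them lower. The fit of all 12 libraries with the block called 33 of the 75, 32 of them lower, against 1569 lower among all 12545 genes. Nfil3 rose (0.52 ± 0.12) and Bhlhe40 fell (-0.87 ± 0.10) among 18 clock genes, and Slc39a10 (-0.51 ± 0.11) was the 1 of 19 metallothionein and zinc transporter genes called. Shares called were 14.7% of the p53 list, 12% of the endoplasmic reticulum list, 11.1% of the clock list and 5.26% of the metallothionein list. Of all genes 6.36% were called.

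**Figure D4:**
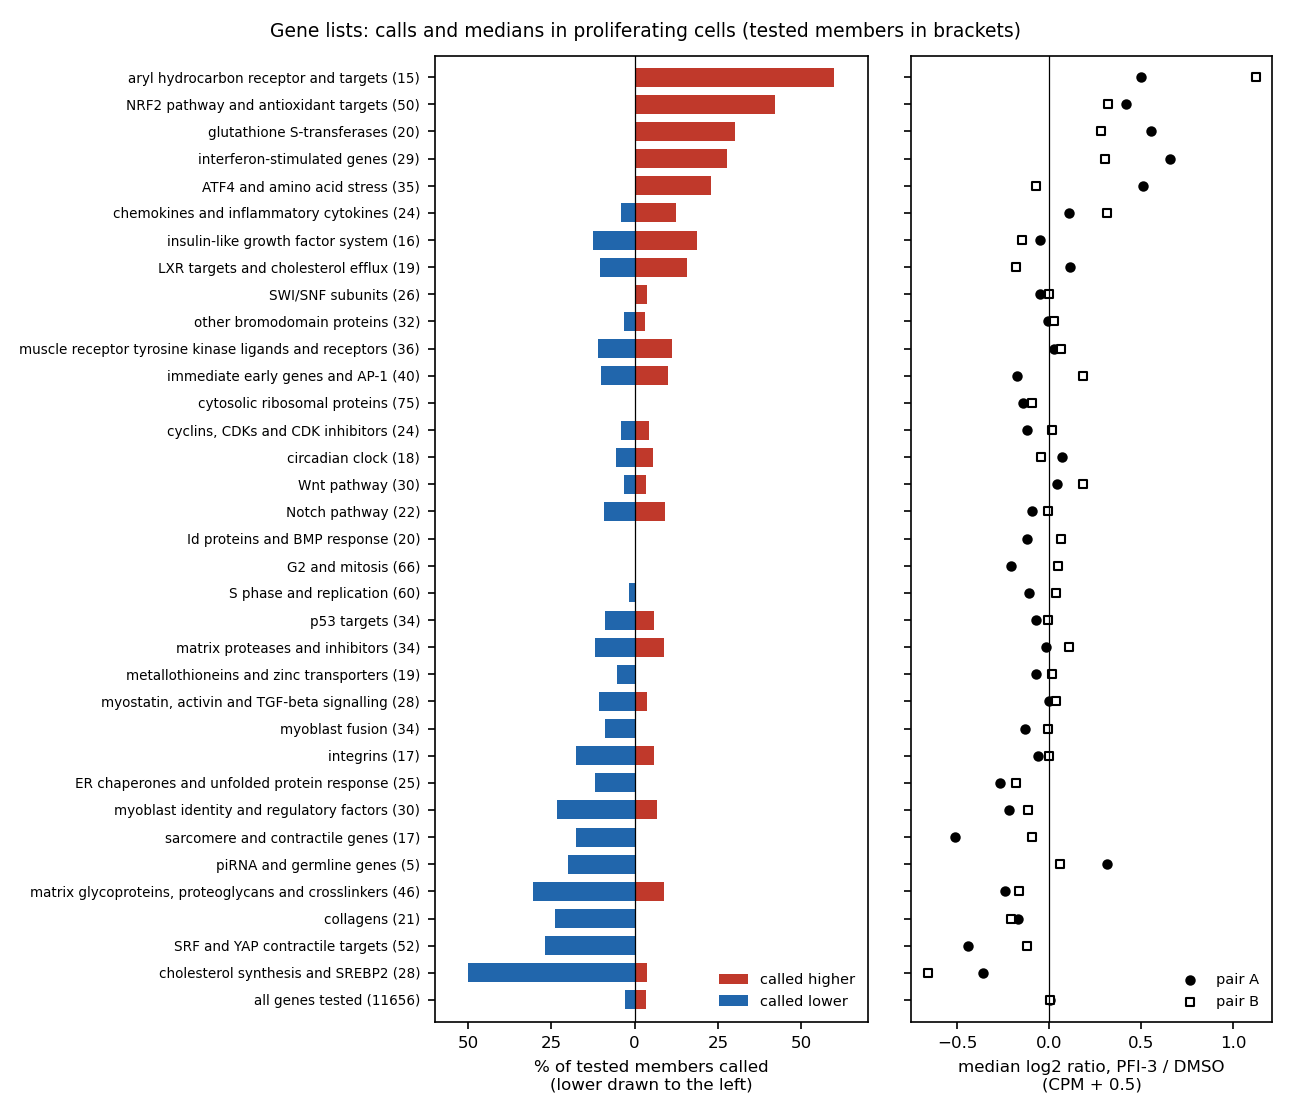
For each gene list (tested members in brackets), the left panel gives the percentage called higher (red, to the right) and lower (blue, to the left), and the right panel the median log2 ratio in pair A (filled) and pair B (open). The aryl hydrocarbon receptor and NRF2 lists head the rises, the cholesterol list the falls, and the bottom row gives 3.37% and 2.99% for all genes tested.

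Chchd10, a small protein of the mitochondrial intermembrane space, rose 6.64-fold with nearly equal values within each group (2.48 and 2.21 CPM with DMSO and 15.4 and 15.8 CPM with PFI-3; log2 fold change 2.73 ± 0.20, adjusted p = 0.000248). Trnp1, a nuclear protein known from the developing cortex, gave 1.94 and 2.94 against 10.7 and 13.0 CPM (log2 fold change 2.28 ± 0.22, adjusted p = 0.000793), and Syt7, a calcium sensor for vesicle and lysosome fusion, gave 2.79 and 1.84 against 10.4 and 8.76 CPM (log2 fold change 2.06 ± 0.23, adjusted p = 0.00184). Ccbe1, a secreted protein needed for lymphatic growth and a member of the matrix list, fell 5.48-fold, the largest fall among called genes averaging 5 CPM or more (42.0 and 23.6 CPM with DMSO and 6.56 and 5.17 CPM with PFI-3; log2 fold change -2.45 ± 0.16, adjusted p = 0.000153). Tdrkh, a partner of the piRNA machinery, fell 3.73-fold (10.9 and 10.2 against 3.06 and 2.58 CPM; log2 fold change -1.90 ± 0.21, adjusted p = 0.00181). Alox5, 5-lipoxygenase, gave 40.6 and 39.5 against 10.2 and 13.4 CPM (log2 fold change -1.77 ± 0.14, adjusted p = 0.000365). Pitx3, a homeobox factor of eye and muscle (8.44 and 9.57 against 3.14 and 3.52 CPM) and Lrrc4c, a netrin-G ligand (11.8 and 6.18 against 4.01 and 2.58 CPM), each fell by 1.43 on the log2 scale. The groups did not overlap for any of these genes. Car6, a secreted carbonic anhydrase that lay outside the naming rule and was picked after its values were seen, had 0 counts in both DMSO libraries and 137 and 53 with PFI-3, at least 29.7-fold higher when DMSO is set to the floor of 3 counts per library.

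Not all calls were equally firm. Of 121 named genes that were called, 14 passed under each of the 13 alternative analyses, leave-one-out fits included: Nqo1, Gsta1, Gsta2, Gm3776, Gsta4, Blvrb, Itgb7, Nr4a2 and Chchd10 among the rises, and Chrna1, Col1a1, Bgn, Tnnt2 and Alox5 among the falls. Without the block 20 of the 121 passed. The leave-one-out fits cannot hold the block, so calls lost there cannot be credited to the left-out library alone.

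The effect in proliferating cells was then set against that in differentiating cells, in 1 fit of all 12 libraries. The letter was a block within each stage, and the stages share no DMSO library. Medium and length of exposure to PFI-3 change with the stage, so their parts cannot be told apart from that of differentiation. The spread in this fit comes from all 12 libraries, and for growth medium it called 2774 genes, against 741 on the 4 libraries. Whether it understates the spread of the GM libraries was not tested. At 24 h the difference itself was called for 1225 of 12545 genes (9.76%), and after 48 h for 2980 (23.8%), against 423 and 1824 without the block. Of the 393 genes higher in growth medium, 284 were called higher at 24 h as well and 14 lower, and 179 and 61 at 48 h. Of 347 lower ones that could be followed, 237 were called lower and 18 higher at 24 h, and 164 and 45 at 48 h. By comparison, 17.0% and 16.5% of all genes were called higher and lower at 24 h, and 17.6% and 18.5% at 48 h. Log2 fold changes of this fit can differ slightly from those above. Ccbe1 and Tdrkh fell at all 3 stages: for Tdrkh the later log2 fold changes were -1.82 ± 0.19 and -1.79 ± 0.20, and for Ccbe1 -2.44 ± 0.25 and -1.91 ± 0.21, with no difference called.

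Nqo1 and Cyp1b1 rose further after induction. Nqo1 reached 2.45 ± 0.08 at 24 h and 2.88 ± 0.11 at 48 h, with the proliferating effect minus the later one at -0.74 (adjusted p = 0.000587) and -1.17 (adjusted p = 3.97e-05). Cyp1b1 did likewise (1.49 ± 0.11 and 1.57 ± 0.11), and Itgb7 reached 3.20 ± 0.18 and 3.92 ± 0.41. Gsta4 went the other way, to 1.47 ± 0.19 at 48 h. Col1a1 fell more at 24 h (-2.67 ± 0.06) than in growth medium, with a difference of 1.16 (adjusted p = 4.15e-05). The fall of Cdh15 was deepest in proliferating cells, at -0.90 ± 0.06 and -0.34 ± 0.06 later (adjusted p of the differences 0.00487 and 5.71e-06), and that of Chrna1 likewise (-1.0 ± 0.06 and -0.40 ± 0.06). The 5 cholesterol genes with values above were called lower at 24 h as well, and their difference from growth medium was called at 48 h: Idi1 gave -0.92 ± 0.06 and then -0.07 ± 0.06, with a difference of -0.79 from growth medium at 48 h (adjusted p = 6.24e-05).

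Some rises of growth medium turned into falls. Chchd10 was still higher at 24 h (0.54 ± 0.17) and lower at 48 h (-1.08 ± 0.10). Trib3 (-1.30 ± 0.44 and -1.36 ± 0.45) and Atf5 (-0.87 ± 0.12 and -1.26 ± 0.12) were called lower at both later stages. The interferon-stimulated genes Ifit1 and Oasl1 still rose at 24 h (1.57 ± 0.21 and 2.10 ± 0.47) and fell at 48 h (-1.13 ± 0.12 and -1.02 ± 0.35). Thbs1 was the reverse case, lower in growth medium and at 24 h (-0.69 ± 0.08) and higher at 48 h (0.25 ± 0.09). Among the named calls, 8 of 121 were called in the opposite direction at 24 h and 14 at 48 h.

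**Figure D5:**
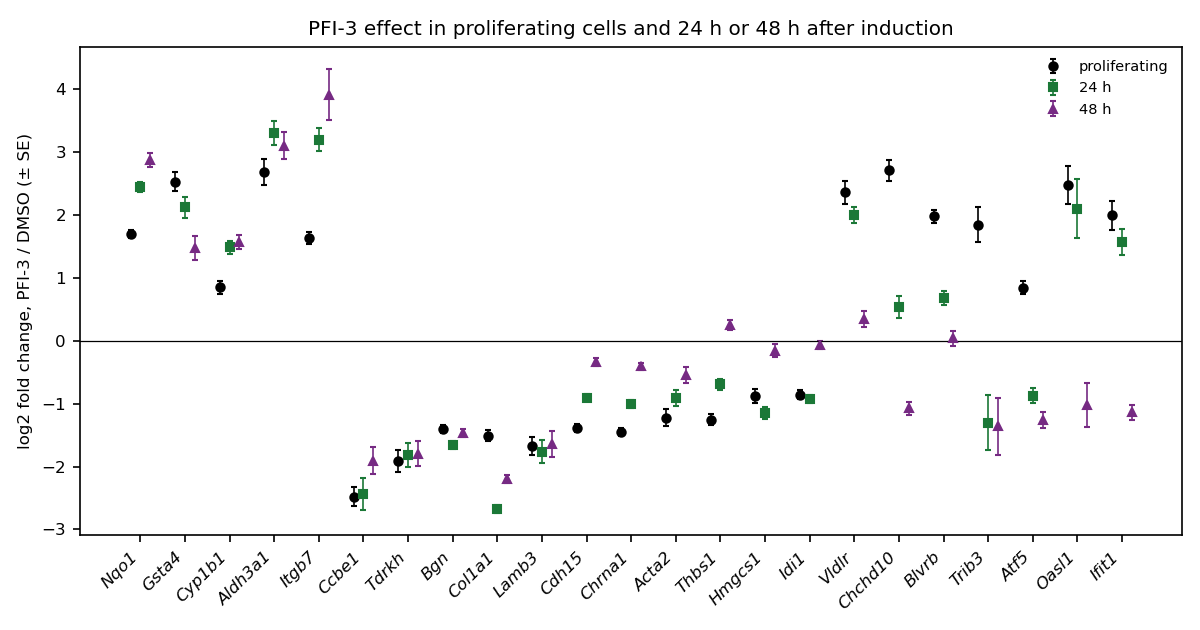
Log2 fold change of PFI-3 over DMSO (± SE, from the fit of all 12 libraries) for named genes in proliferating cells (black circles), 24 h (green squares) and 48 h (purple triangles) after induction. Ccbe1, Tdrkh and Bgn lie together at all 3 stages, Nqo1 and Itgb7 lie higher at the later stages, and Trib3, Atf5 and Ifit1 cross the zero line.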

How the data were processed

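RNA from C2C12 cells was sequenced and processed by a provider, per the labels. The authors deposited 1 table per library with an expected count and an FPKM value (fragments scaled by gene length and depth) per gene, per the file headers. The submitters' processing notes name HISAT, StringTie, Cufflinks, Bowtie, RSEM and DESeq2 and the build mm10, without versions or roles. A gene that a table does not list was taken as 0. In 2526 cases a gene was listed in 1 GM replicate of a group only, and 96.1% of these cases had at most 5 counts. No mitochondrial gene was listed. Between 93.3% and 93.7% of expected counts were whole; fractions arise where reads are shared.

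Expected counts were rounded and tested with edgeR 4.0.16 (R 4.3.3; quasi-likelihood, TMM scaling, filterByExpr, letter as a block, 1 residual degree of freedom, moderated across genes). CPM are counts scaled to the TMM-adjusted total, printed per library (n = 2 per group), and errors of log2 fold changes are SEs. Pairing comes from the letters in the titles, checked by the correlation of r = 0.526 and not explained by the labels. Alternatives used DESeq2 1.42.0 and limma 3.58.1 (log2 FPKM with pseudocounts of 1 and 0.1). The tests were tested on simulated data. Figures were drawn with matplotlib 3.10.9. Counting error limits low counts: a floor of 3 counts per library was used, which covers counting error only, since PCR copies are not independent molecules. Named genes are a fixed list, the 12 largest rises and falls of at least 5 CPM among calls, up to 5 called members and the most abundant member of each gene list, and the 3 largest stage differences each way. Some called genes are not reported here. The members, lists and rules were chosen with earlier results of these data known. The labels call the libraries biological duplicates without saying whether cultures were separate, so p-values measure the spread between these samples.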

Additional observations from a re-analysis of the deposited data

Results flagged for a closer look

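The effect of PFI-3 differed between proliferating and differentiating cells by edgeR's interaction test for 1225 genes at 24 h and 2980 at 48 h. Medium and length of exposure differ between these stages too and cannot be told apart from differentiation. Values below are the log2 fold change in proliferating cells minus that at the later stage, and all have an adjusted p under 0.05.

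Against both 24 h and 48 h the effect differed for the stress genes Trib3 (3.15 and 3.21) and Atf5 (1.72 and 2.10), for Dtx4 (1.41 and 1.71) and Mylip (0.97 and 1.54), each higher in growth medium and called lower later. Cxcl12 (-1.23 and -1.71) was called lower in growth medium and higher later, and Ccl5, another chemokine, differed by -3.04 and -3.48. Ccl5 was not called in proliferating cells (29.6 and 0.368 against 40.3 and 7.4 CPM) and rose later. Prl2c2 differed by -2.01 and -3.76. Further differences from the 24 h effect were -0.71 for Igfbp5, 1.31 for Il33, -2.73 for Angptl4, 2.31 for Chac1, -5.61 for Gm3776 and 11.60 for Gm14430. From the 48 h effect they were 3.54 for Gsta2, 3.79 for Chchd10, 3.50 for Oasl1, 3.13 for Ifit1, 1.47 for Irs2, 0.93 for Nfil3, -1.51 for Thbs1, -1.21 for Adamts4, -2.09 for Cdkn3 and -10.11 for Tmem254b.

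Gm14430, Tmem254b and Prl2c2 had fractional counts in every library and Gm3776 in 77.8% of those that list it, so reads were divided among similar genes and these values are uncertain. The fitted values of Gm14430 and Tmem254b rest on stages where a group has libraries at 0 counts and are no bounds. The names were chosen as the largest differences or as calls of opposite sign, and no cause was tested.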

How the results depend on the processing

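The 741 calls (393 higher, 348 lower) moved with the fit. Without the replicate block 32 were called (16 and 16). With all 12 libraries 1456 were called (685 and 771) without the block and 2774 (1205 and 1569) with a replicate block within stage. The DESeq2 Wald test gave 305 (129 and 176), limma on log2(FPKM + 1) 438 (150 lower) and on log2(FPKM + 0.1) 194 lower. Leaving out each library in turn, with 3 libraries and no block, gave 24 to 325 calls, 16 to 160 higher and 8 to 165 lower, with the lone library assumed to vary like the other group. Size factors and both count filters kept the number within 1.5 times. A 2-fold limit in both pairs left 103 of 419 genes.

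The stage differences fell from 1225 to 423 at 24 h and from 2980 to 1824 at 48 h without the replicate block, to 459 and 1228 with DESeq2, and to 763 at 24 h with the 8 libraries of both stages. Leaving out each GM library gave 445 to 995 and 1923 to 2924. Of all calls, 738 or 739 of 741 kept their sign without a given library, except 730 of 740 without DMSO library B. Among the 121 named calls, left-out libraries turned the sign of 3: the Tagln log2 fold change ranged from -1.98 to 0.13, the Igfbp5 log2 fold change from -2.17 to 1.03 and the Il33 log2 fold change from -0.26 to 1.68; the cause was not tested. Counting error is largest for low genes such as Gbp7, Il6 and Tnxb.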
